A study of Mus musculus with 10 samples.

Results

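The surface receptors of cDC1, the conventional dendritic cells that take up dying cells and present their antigens to CD8+ T cells, were followed in CD8+ DCs from spleens of mice with and without the phosphatase gene Ppef2. The members were the 10 receptor genes Xcr1, Clec9a, Cd8a, Cd24a, Cadm1, Cd36, Ly75, Btla, Clec12a and Havcr2, chosen by symbol as known receptors of cDC1. All 10 were found among the 10767 genes of the deposited table. Ppef2+/+ CD8+ DCs were compared with Ppef2-/- CD8+ DCs, with 5 libraries per genotype. Each library came from 1 sort of cells pooled from 3 spleens. Libraries of both genotypes with the same replicate number, 1 to 5, were taken as 1 sort, which the labels do not state. The mice were untreated, matched for sex and age and 8 to 13 weeks old. The knockout allele carries a gene trap after exon 4 and before exon 5 of Ppef2, made in JM8A3.N1 ES cells, carried in every cell of the animal and crossed to C57BL/6. Cells were gated as CD11c+MHCII+CD8+CD11b-, so the presence of Cd8a mRNA follows from the gate.

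Receptors of this group serve 3 tasks. XCR1, a chemokine receptor coupled to inhibitory G proteins, brings cDC1 to T cells and NK cells that secrete its ligand XCL1. CLEC9A, DEC-205 (Ly75), CD36 and TIM-3 (Havcr2) bind dead cells or their products, with CLEC9A recognising exposed F-actin and signalling through the kinase SYK. CADM1, BTLA, CLEC12A, CD24 and CD8α are adhesion, inhibitory or coreceptor molecules, and several of them are used as antibody targets to tell cDC1 from cDC2.

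Values are normalized counts, which are read counts divided by a factor for the depth of the library. The value of 1 read lay between 0.464 and 1.503 normalized counts, and the libraries held about 3602000 to 11651000 reads in the genes of the table. The mean of each sort had been removed from every gene, so that both libraries of any sort have 1 common total per gene. The genotype difference within a sort is untouched by this step, but the SDs of both genotypes become the same, except in genes with values at the floor of 1 such as Ppef2, and leave out the spread between sorts. Ppef2 itself was at 197 ± 32.5 normalized counts (SD, n = 5) in Ppef2+/+ and 14.1 ± 17.2 in Ppef2-/- libraries, and the reads behind them were 212, 145, 95, 136 and 228 in Ppef2+/+ and 7, 8, 1, 0 and 2 in Ppef2-/- libraries of sorts 1 to 5. All 10 libraries thus matched their genotype labels at the targeted gene. Among defining markers of other cells, Cd3e (T cells), Alas2 (erythroid cells), Pf4 (platelets), Ncr1 (NK cells) and S100a8 (neutrophils) were not in the table. The cDC2 marker Sirpa had a mean of 345 and the pDC marker Siglech a mean of 144 normalized counts. Csf1r and Adgre1 of macrophages had means of 270.2 and 43.1, Ms4a1 of B cells 144, Cd8b1 of T cells 52.8 and Clec4a4 of cDC2 14.1 normalized counts. The libraries of sorts 4 and 5 stood apart in the summed cDC2 markers, with values given beside the differences within sorts.

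The receptor mRNAs were abundant in both genotypes. Per kilobase of exonic sequence (GENCODE annotation of GRCm38, mean of 10 libraries), Cd8a had the highest level with 1563 normalized counts, followed by Clec9a with 1350 and Havcr2 with 1326. Btla at 995, Cd24a at 870 and Xcr1 at 840 normalized counts per kilobase formed the middle of the order. Cd36 at 614, Cadm1 at 275, Clec12a at 164 and Ly75 at 139 normalized counts per kilobase followed. The libraries of Clec9a and Havcr2 overlapped, as did those of Btla and Cd24a and those of Cd24a and Xcr1, so their order is not resolved. All other neighbours lay apart in the deposited values of all 10 libraries. With the sort means put back, Clec12a (145 to 184 normalized counts per kilobase) and Ly75 (116 to 166) overlapped as well, while the other receptors could not be examined in this way. Among the 10702 genes with an exonic length, Cd8a ranked 138th and Ly75 1762nd, and Ppef2 was at 35.3 normalized counts per kilobase. With the longest annotated transcript in place of all exons Cadm1 was at 602, Cd24a at 1236 and Clec12a at 281 normalized counts per kilobase, and the order changed in Cd24a, which then lay above Btla.

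**Figure D1:**
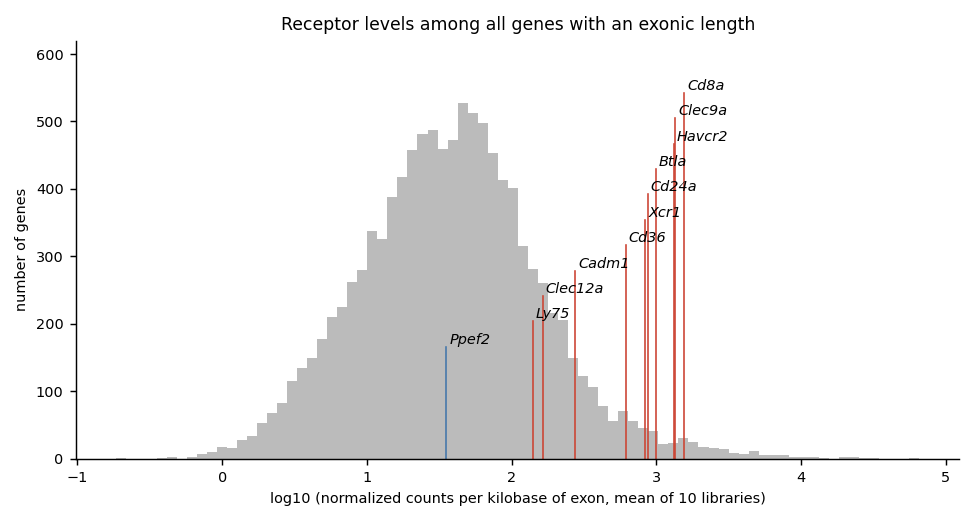
Distribution of the level per kilobase of exon over 10702 genes (x axis, log10 of normalized counts per kilobase, mean of 10 libraries; y axis, number of genes in grey bars), with the 10 receptors as red lines and Ppef2 as a blue line, whose heights only keep the names apart. The receptors sit from 139 (Ly75) to 1563 (Cd8a) normalized counts per kilobase, to the right of most genes and of Ppef2 at 35.3.

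Mean receptor levels differed between the genotypes by 5.45% at most (Clec9a), with 6 of 10 receptors higher and 4 lower in Ppef2-/- libraries. The genotypes overlapped in 10 of 10 receptors, where 6.18% of all genes did not overlap, and after removal of the sort means this is the same as 1 direction in all 5 sorts. In the fit across all genes without a sort term (limma on log2 of the value plus 1, Benjamini-Hochberg adjustment over 10767 genes), 0 of 10 receptors had an adjusted p under 0.05, where 0.957% of all genes had one. With the sort as block, 0 of 10 were called as well, where 0.00929% of all genes, Ppef2 alone, were called. An unadjusted p under 0.05 was found for 0 of 10 receptors in either fit, compared to 17.5% of all genes without and 4.29% with the block. The log2 fold change was within 0.1 of 0 in 10 of 10 receptors and in 62.4% of all genes. Its median was 0.01 over the receptors and 0.00 over all genes, and the median of its absolute value was 0.03 and 0.07, respectively. The receptors lay between percentile 89.2 (Clec12a) and 99.2 (Cd8a) of level, and the values over all genes were not matched for level. Whether the receptors differ less than genes of equal level was not tested. After removal of the sort means, both libraries of a sort mirror each other, but the fit without a sort term counts them as independent. Its p-values are therefore too small, also those behind the 0.957% and 17.5% of all genes. Its SEs were smaller for the 10 receptors (0.03 for Xcr1, compared to 0.05 with the sort as block). In Ppef2, which has values at the floor, the SE was larger without a sort term (0.74, compared to 0.51 with the block). The limma p of Ppef2 was 2.4e-05 without and 1.1e-08 with the block. In pools of animals fewer cells of a type and less RNA per cell cannot be told apart. With the sort as block, the 95% intervals of the 10 receptors reached from a fold of 0.905 (lower bound of Ly75) to 1.15 (upper bound of Cd24a), so larger genotype differences in mean level lay outside the intervals.

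**Figure D2:**
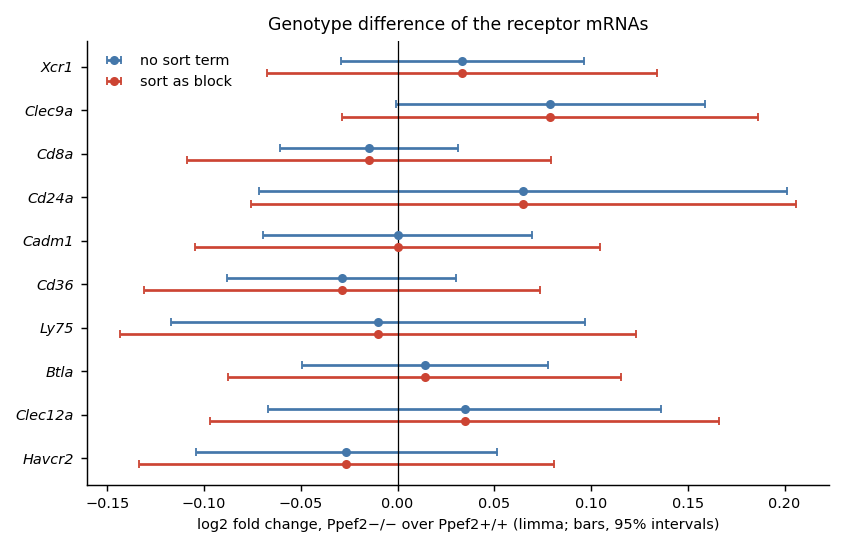
Log2 fold change of each receptor, Ppef2-/- over Ppef2+/+ (x axis), with 95% intervals from limma without a sort term (blue) and with the sort as block (red), 5 libraries per genotype. All intervals include 0, and the estimates lie between −0.03 for Cd36 and 0.08 for Clec9a.

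Xcr1 (chr9:123852315-123862029, minus strand, mm10), the chemokine receptor, was at 3754, 3663, 3668, 3543 and 3850.3 normalized counts in Ppef2+/+, sorts 1 to 5. In the Ppef2-/- libraries it was at 3724, 3815, 3809.7, 3935 and 3627. The genotypes overlapped, and sort 4 held both the lowest Ppef2+/+ and the highest Ppef2-/- library. Means were 3695 ± 115 and 3782 ± 115 (SD, n = 5), a log2 fold change of 0.03 (95% interval with the sort as block −0.07 to 0.13). The mean difference within sorts was 86.7 normalized counts, compared to 10.3 without sort 4 and 164 without sort 5. The ligand gene Xcl1 was not in the table. Gnai2, which encodes an inhibitory G protein subunit, was at 3863 in Ppef2+/+ and 3856 in Ppef2-/- libraries.

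Among the receptors for dead cells, Clec9a had the largest difference of means. Clec9a (chr6:129408862-129424763, plus strand) was at 4343, 4311, 4392, 4016 and 4554 normalized counts in Ppef2+/+ and at 4546, 4578, 4497, 4873 and 4335 in Ppef2-/- libraries of sorts 1 to 5. Ppef2-/- was higher in sorts 1 to 4 and lower in sort 5, and the genotypes overlapped. Means were 4323 ± 196 and 4566 ± 196 (SD, n = 5), with a log2 fold change of 0.08 ± 0.04 (SE; limma adjusted p = 0.29 without a sort term and 0.995 with the sort as block). The mean difference within sorts was 242 normalized counts, compared to 88.6 without sort 4 and 358 without sort 5. The exact permutation test that exchanges genotypes within sorts gave p = 0.25 for Clec9a, where the smallest p that 5 sorts allow is 0.0625. In the annotation, exons of Clec9a overlap those of Clec1b on the same strand by 184 bp, and 4.02% of its 50 bp stretches also occur in another gene, but Clec1b was not in the table.

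Ly75 (chr2:60292103-60383303, minus strand), the endocytic receptor DEC-205, was at 1042, 998, 965, 938 and 886 normalized counts in Ppef2+/+ libraries of sorts 1 to 5. Its Ppef2-/- libraries were at 883, 927, 959.8, 987 and 1039. Sorts 1 and 5 differed in opposite directions, by −16.5 and 15.9% of the mean level. The mean difference of −6.78 normalized counts was far below its SD over sorts of 118, and it was 31.2 without sort 1 and −46.8 without sort 5. An antisense gene, Gm13571, shares 249 bp with exons of Ly75, and the counting is not stated to use strand.

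Cd36 (chr5:17781690-17888801, minus strand), a scavenger receptor on the chromosome of Ppef2 at a distance of 74.3 Mb, was at 2258, 2173, 2291, 2156 and 2249 normalized counts in Ppef2+/+ libraries. It was at 2149, 2234, 2116, 2251 and 2158 in Ppef2-/- libraries of the same sorts. Ppef2-/- was lower in sorts 1, 3 and 5, and the genotypes overlapped. The log2 fold change was −0.03 (95% interval with the sort as block −0.13 to 0.07). The mean difference of −44.2 normalized counts ranged from −79.0 without sort 4 to −11.4 without sort 3.

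Havcr2 (chr11:46454935-46481255, plus strand), which encodes the phosphatidylserine receptor TIM-3, was at 3508, 3676, 3875, 3499 and 3646 normalized counts in Ppef2+/+ libraries. In Ppef2-/- libraries it was at 3707, 3539, 3340.45, 3716 and 3569. Sort 3 showed the largest difference of this gene, −534 normalized counts or −14.8% of the mean. Without sort 3 the mean difference turned from −66.3 to 50.6 normalized counts.

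Among the adhesion molecules, differences were largest in sort 4. Cd24a (chr10:43578284-43584265, plus strand), the gene of the GPI-anchored CD24, was at 2149, 2255, 2343, 1893 and 2331 normalized counts in Ppef2+/+ libraries and at 2339, 2233, 2145, 2595 and 2157 in Ppef2-/- libraries. In sort 4 the Ppef2-/- library was higher by 702 normalized counts or 31.3% of the mean, which is 10.5 times the counting error. In percent and in counting errors this was the largest of the 50 receptor differences within sorts, whereas in normalized counts Clec9a in sort 4 differed by 858. Without sort 4 the mean difference of Cd24a turned from 99.9 to −50.7 normalized counts. Of its 50 bp stretches 2.75% are shared with the gene Gm6212.

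Cadm1 (chr9:47530173-47857637, plus strand), an adhesion molecule of the nectin-like family, was at 2889, 2942, 2889.6, 2693 and 2941 normalized counts in Ppef2+/+ libraries. In Ppef2-/- libraries it was at 2853, 2800.5, 2852, 3049 and 2801. The means were 2871 ± 103 (SD, n = 5) in both genotypes, with Ppef2-/- lower in 4 sorts and higher in sort 4. The mean difference was 0.18 normalized counts, and without sort 4 it was −88.7 (exact permutation p = 0.125, the smallest that 4 sorts allow). Crtam, the T cell ligand of CADM1, was not in the table.

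Cd8a (chr6:71373427-71379173, plus strand) was at 5816, 5610.1, 5709.9, 5667 and 5762 normalized counts in Ppef2+/+ and at 5552, 5758, 5658, 5701 and 5606 in Ppef2-/- libraries of sorts 1 to 5. The genotypes overlapped, and Cd8a had the smallest relative spread of the 10 receptors, with within-sort differences from −4.66 to 2.60% of the mean. Its mean difference of −57.9 normalized counts ranged from −109 without sort 2 to −6.19 without sort 1. Cd8b1, the gene of the CD8β chain that cytotoxic T cells express together with CD8α, was at 63.1, 64.2, 53.6, 61.8 and 73.1 in Ppef2+/+ and at 42.4, 41.4, 52.0, 43.8 and 32.5 normalized counts in Ppef2-/- libraries. The groups did not overlap, as was the case in 6.18% of all genes. Cd8b1 fell by 0.57 on the log2 scale (SE 0.12, limma adjusted p = 0.048 without a sort term), a call that was lost with the sort as block (adjusted p = 0.995) and in 10 of 10 fits without 1 library (adjusted p 0.061 to 0.103). Cd3e was not in the table.

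The inhibitory receptors Btla and Clec12a varied between sorts in both directions. Btla (chr16:45224315-45257670, plus strand) was at 3467, 3244, 3371, 3265 and 3462 normalized counts in Ppef2+/+ and at 3289, 3513, 3385, 3491 and 3295 in Ppef2-/- libraries. Ppef2-/- was higher in sorts 2, 3 and 4, and the log2 fold change was 0.01 (95% interval with the sort as block −0.09 to 0.12). Without sort 2 or sort 4 the mean difference of Btla turned from 32.7 to −26.3 or −15.6 normalized counts. Tnfrsf14, which encodes the BTLA ligand HVEM, was at 147 in Ppef2+/+ and 144 normalized counts in Ppef2-/- libraries. Clec12a (chr6:129342691-129365303, plus strand, 43559 bp from Clec9a) was at 854, 901, 960.3, 837 and 934 normalized counts in Ppef2+/+ and at 962, 916, 856, 979 and 882 in Ppef2-/- libraries. It was higher in Ppef2-/- in sorts 1, 2 and 4, and its mean difference turned from 21.8 to −8.43 normalized counts without sort 4.

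**Figure D3:**
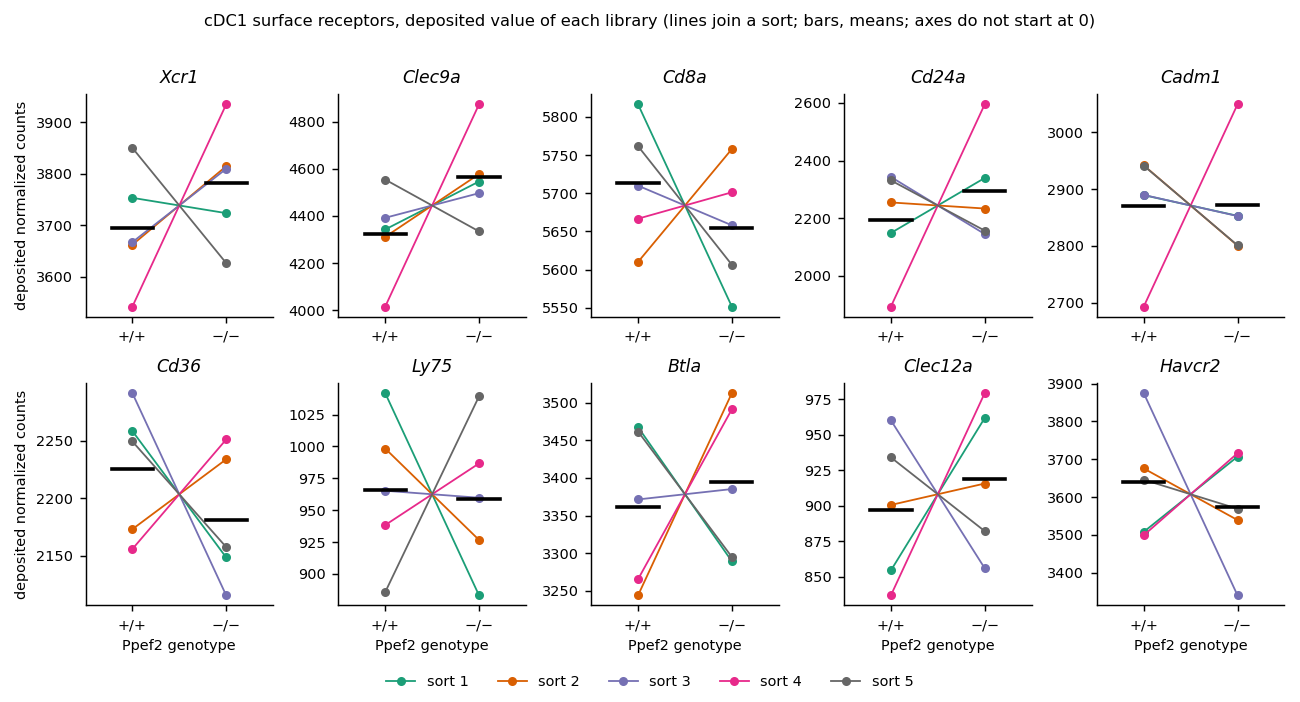
Deposited normalized counts (y axis, not starting at 0) of the 10 receptors in the Ppef2+/+ and Ppef2-/- library of each sort (x axis); lines join the libraries of a sort and black bars are means of 5 libraries. The lines of each gene cross in 1 point because sort means had been removed, and in sort 4 the Ppef2-/- library is the higher one in all 10 panels.

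For Clec12a and Ly75 the whole reads behind the values could be calculated back, which restores the level of each sort. Clec12a had 619, 675, 677, 916 and 858 reads in Ppef2+/+ and 2056, 1583, 975, 936 and 586 reads in Ppef2-/- libraries of sorts 1 to 5. With the sort means included, its levels were 897 ± 74.0 and 919 ± 70.8 normalized counts (SD, n = 5; exact permutation test over libraries without pairing, p = 0.62). The exact permutation test within sorts gave p = 0.625 for Clec12a. Ly75 had 835, 733, 620, 1034 and 803 reads in Ppef2+/+ and 2120, 1570, 989, 950 and 696 reads in Ppef2-/- libraries. Its restored levels were 966 ± 124 and 959 ± 34.5 normalized counts (exact permutation test without pairing, p = 0.84, and within sorts, p = 0.81). The Ppef2+/+ libraries of Ly75 reached from 1143 in sort 1 to 800 in sort 5. The restored SD of Ly75 was thus larger in Ppef2+/+ and smaller in Ppef2-/- than the 59.1 of the deposited values of both genotypes. For Ly75 a second set of reads existed outside 1.6 times the mean level and was not used. The other 8 receptors had too many candidate sets to be searched, so whether their reads are unique was not examined.

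**Figure D4:**
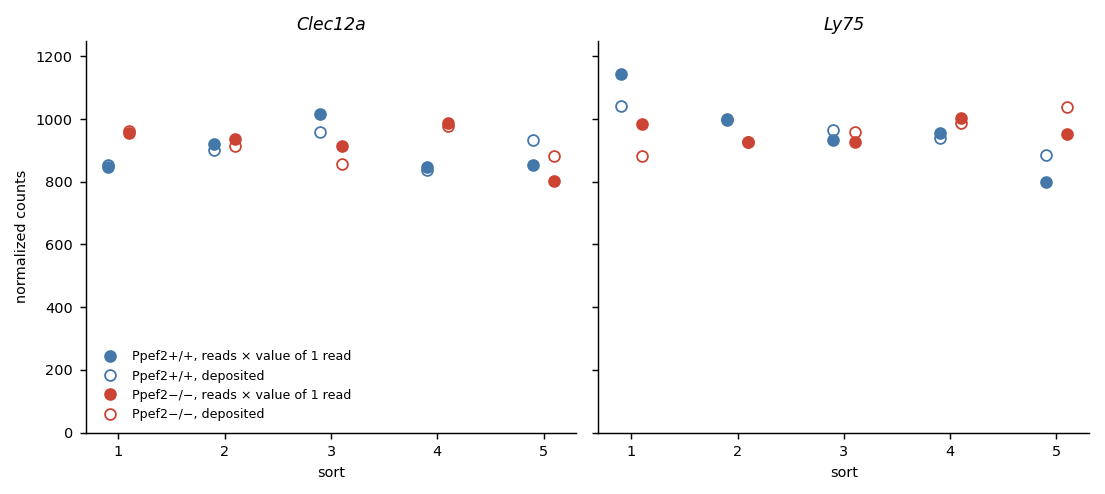
Levels of Clec12a and Ly75 in each library (y axis, normalized counts; x axis, sort), as deposited (open circles) and as whole reads times the value of 1 read (filled circles), with Ppef2+/+ in blue and Ppef2-/- in red. The 2 kinds of value differ most for Ly75 in sort 1 (Ppef2+/+, 1042 deposited and 1143 restored), and the genotype difference within a sort is the same in both.

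Within sorts, all 10 receptors were higher in Ppef2-/- in sort 4 and 9 of 10 were lower in sort 5. Receptors were higher in Ppef2-/- in 4, 6, 3, 10 and 1 of 10 cases in sorts 1 to 5, where 49.6, 49.0, 50.2, 52.3 and 50.2% of all genes were higher. Summed over the 10 receptors, the difference was −0.26, 1.799, −2.82, 10.2 and −3.82% of the mean level in sorts 1 to 5. Differences above 1.96 counting errors, with about 604 to 12239 reads for the mean level of a receptor at the depth of a library, were found in 24 of 50 cases. Among the 1167 genes with a mean at or above that of the lowest receptor, 41.6% of such differences were above this limit, and 22.1% among all genes. Exact permutation tests within sorts gave p between 0.25 for Clec9a and 1 for Cadm1.

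Markers of other cells also differed between the libraries of a sort. Summed over 13 measured cDC2 markers, the Ppef2-/- library was lower by 30.4% of the mean in sort 4 (2448 against 1802 normalized counts) and higher by 32.8% in sort 5 (1776 against 2473), with differences of −1.40, 0.65 and −1.46% in sorts 1 to 3. Sirpa, the cDC2 receptor for CD47, was at 426 in the Ppef2+/+ and 264 in the Ppef2-/- library of sort 4 and at 238 and 453 in those of sort 5. The 4 measured T cell markers (Cd8b1, Cd4, Cd5 and Tcf7 of 19, without Cd3e) differed by −31.5, −3.94, −8.09, −36.9 and 21.0% in sorts 1 to 5. Their most abundant gene, Cd4 with a mean of 197 normalized counts, is also 1 of the cDC2 markers, so these sums are not independent. The 14 measured pDC markers differed by −3.82, −5.74, 2.08, −11.5 and −14.9%. In the 9 erythroid and platelet markers the differences were 20.4, 14.8, 27.9, 7.17 and −17.0%, and in the 18 macrophage and monocyte markers 10.7, −11.4, −3.21, −1.09 and −7.68%. The 5 B cell markers differed by 4.46, 18.5, 6.15, −5.34 and −2.59% in sorts 1 to 5. Of 10 NK cell markers only Klrd1 and Klrk1 were in the table, and their sum differed by −6.11, 7.46, −20.2, −8.60 and −12.9%. Klrk1, with a mean of 524 normalized counts compared to 133 for Klrd1, is also 1 of the lectin-like receptors below. The 2 neutrophil markers, with sums of 15.8 to 26.8 normalized counts, differed by 28.5, −53.0, −8.37, −23.4 and −16.7%. The 22 other cDC1 markers differed by 1.26, −2.01, −2.61, 4.43 and −5.09%. The sum over all genes of the table was higher in Ppef2-/- by 3.47% in sort 4, and the ratio of depth, Ppef2-/- to Ppef2+/+, was 2.95, 2.31, 1.605, 0.875 and 0.727 in sorts 1 to 5. The part of these shifts in the receptor values was not tested.

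**Figure D5:**
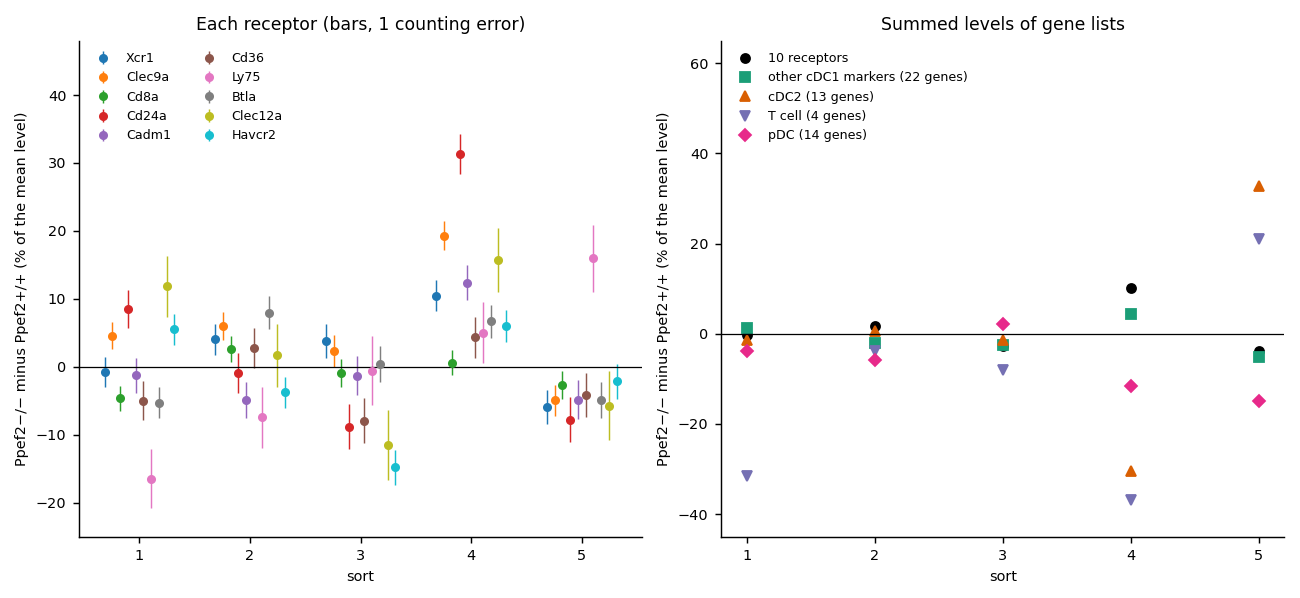
Difference within each sort, Ppef2-/- minus Ppef2+/+ (y axis, percent of the mean level; x axis, sort), for each receptor (left, bars are 1 counting error) and for summed gene lists (right). All 10 receptors lie above 0 in sort 4, with Cd24a at 31.3%, while the summed cDC2 markers are at −30.4% in sort 4 and 32.8% in sort 5.

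Ligands, adaptors and relatives of the receptors gave the following counts, beside 17.5% of all genes with an unadjusted p under 0.05 without and 4.29% with the block. Of 27 partner and signalling genes 22 were in the table. At an adjusted p under 0.05 in the fit without a sort term, 1 fell (Cd8b1, above) and 0 rose, where 0.957% of all genes were called. An unadjusted p under 0.05 was found for 4 of the 22 without and 1 with the block. The inositol phosphatase gene Inpp5d, the most abundant of them, was at 4809.6 and 4786 and the Src family kinase gene Lyn at 2242 and 2206 normalized counts in Ppef2+/+ and Ppef2-/- libraries. Of the other C-type lectin and lectin-like receptors 21 were measured and 0 were called by limma (unadjusted p under 0.05 in 5 without and 2 with the block), with Klrk1 (NKG2D) at 555 ± 22.9 and 494 ± 22.9 (SD, n = 5; limma adjusted p = 0.072). Clec7a, which encodes the β-glucan receptor Dectin-1, was at 344 and 339, and Clec1a at 253 and 261 normalized counts. Of the other scavenger and apoptotic cell receptors 15 were measured and 0 called (unadjusted p under 0.05 in 2 without and 1 with the block), including Cxcl16 at 1207 and 1244, Scarb1 at 938 and 912 and Cd68 at 805 and 775 normalized counts in Ppef2+/+ and Ppef2-/- libraries.

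Among 5 measured genes of the nectin family and its receptors beside Cadm1, Pvrl1, the gene of the adhesion molecule nectin-1, was the only one called. Pvrl1 was at 522, 529.8, 518, 528 and 521 in Ppef2+/+ and at 475, 468, 479.9, 469.98 and 477 normalized counts in Ppef2-/- libraries of sorts 1 to 5. The groups did not overlap, as was the case in 6.18% of all genes. Pvrl1 fell by 0.14 on the log2 scale (SE 0.03, limma adjusted p = 0.035 without a sort term), where 0.957% of all genes were called. The call of Pvrl1 was lost with the sort as block (limma adjusted p = 0.995) and in 10 of 10 fits without 1 library. Pvr was at 156 and 133 and Cadm3 at 117 and 121 normalized counts in Ppef2+/+ and Ppef2-/- libraries.

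Of the 22 other cDC1 markers 0 were called by limma. An unadjusted p under 0.05 was found for 5 without and 1 with the sort as block, compared to 17.5 and 4.29% of all genes. The most abundant were Wdfy4, needed for cross-presentation, at 28587 and 28476, Ppt1 at 20348 and 19988, and Irf8, the transcription factor that specifies cDC1, at 13561 and 13337 normalized counts in Ppef2+/+ and Ppef2-/- libraries. Among 14 pDC markers only the transcription factor gene Tcf4 was called without a sort term, at 423 ± 19.6 and 342 ± 19.6 normalized counts (SD, n = 5). Tcf4 fell by 0.31 on the log2 scale (limma adjusted p = 0.018), with an adjusted p of 0.71 with the sort as block, and the call was lost in 5 of 10 fits without 1 library. Of the 14 pDC markers 11 were lower in Ppef2-/-, with a median log2 fold change of −0.19. Among them 5 had an unadjusted p under 0.05 without and 4 with the block, compared to 17.5 and 4.29% of all genes. Of the 4 T cell markers Cd8b1 was called as above. None of the 13 cDC2, 18 macrophage and monocyte, 9 erythroid and platelet, 5 B cell, 2 NK cell and 2 neutrophil markers in the table was called in either limma fit. An unadjusted p under 0.05 in the fit without a sort term was found for 0, 3, 2, 0, 1 and 0 of them, respectively, and for 17.5% of all genes.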

How the data were processed

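RNA of sorted spleen CD8+ DCs was read from 1 end over 50 bp. Alignment to mm10 was done by the authors (HISAT in the methods, TopHat2 2.0.3 in the submitters' processing notes), followed by counting per RefSeq gene in Partek 6.6 and normalization with DESeq2. Deposited values thus hold a depth-normalized signal and no raw counts, in which values below 1 were set to 1 and genes with a mean under 10 in both genotypes removed. Sort means had been removed from the deposited values, a step not named in the sources used here. In the 10721 genes with every value above the floor, the sums of a sort agreed within a relative spread of 6.28e-06. The pairing by sort follows the replicate numbers, and deviations of the paired libraries correlated with r = −1.0000 in each of 5 sorts. That the libraries of a pair were sorted together is not stated in the labels. No column of values was set aside (0 unused).

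Differences were tested with limma 3.58.1 (eBayes with trend) in R 4.3.3 on log2(value + 1), two-sided, without a sort term as in the study's one-way model, with Benjamini-Hochberg adjustment over 10767 genes and a threshold of 0.05. The alternative fit had the sort as block. A fold change on this scale understates changes of low genes. Within-sort differences were tested by exact sign changes, two-sided, with no adjustment. Counting errors are Poisson errors of reads approximated as the mean level of the gene over the value of 1 read in the library, and they cover counting error only. The value of 1 read was found from 557 low genes as the combination, out of 32768, in which 100% of genes met the sort sums, compared to 1.97% for the next. Whole reads were solved for 9608 of the 9627 genes (99.8%) below 1000 normalized counts. Lengths and positions came from GENCODE M21 for 10702 genes (99.4%), 310 of them through RefSeq synonyms.

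The receptors and all gene lists were chosen with earlier results of these data known. Genes were named as the receptors, Ppef2, up to 3 genes of highest level per list and every list gene with an adjusted p under 0.05. Tnfrsf14, Sirpa, Siglech and the missing Xcl1 and Crtam were named as ligands or defining markers.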

Additional observations from a re-analysis of the deposited data

Results flagged for a closer look

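Cadm1 in sort 4 stood apart from the other sorts in both genotypes. In Ppef2+/+ the library of sort 4 was the lowest with 2693 normalized counts, where the other 4 lay between 2889 and 2942, and this gap took 0.789 of the whole range (Dixon's critical value for 5 libraries, 0.71). In Ppef2-/- the library of sort 4 was the highest with 3049 normalized counts, where the others lay between 2800.5 and 2853. Since sort means had been removed, both values mirror each other and count as 1 deviation. Of 11 genes tested, each with 2 such groups, 0.55 would be marked in this way by chance.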

How the results depend on the processing

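The fold changes of the 10 receptors were refitted 172 times, with 164 in the same direction, 8 in the opposite direction and 0 called, and the smallest adjusted p was 0.217 (limma). The number of genes called among all 10767 was 103 without a sort term, 1 with the sort as replicate block, 193 without the trend, 1 with the sort means put back (genes with solved reads), and 1 to 23 when a library was left out (1 without Ppef2+/+ of sort 2 or 3 or Ppef2-/- of sort 2). The block, which follows the pairing by sort, changed no call of a receptor, but it removed those of Cd8b1, Pvrl1 and Tcf4. Ppef2 lost its call without a sort term in 4 of the 10 fits that left out a library, those without Ppef2+/+ of sort 1, 2 or 3 or Ppef2-/- of sort 2 (limma adjusted p 0.053 to 0.071). With quantile normalization the log2 fold change of Ly75 was 0.00026 and that of Btla −0.0059. Leaving out 1 library gave −0.023 to 0.0091 for Cadm1 and −0.041 to 0.019 for Ly75. Leaving out 1 sort gave mean differences of −50.7 to 174 normalized counts for Cd24a, −88.7 to 35.5 for Cadm1, −46.8 to 31.2 for Ly75, −26.3 to 85.4 for Btla, −8.43 to 53.3 for Clec12a and −137 to 50.6 for Havcr2. With the longest transcript the level per kilobase was 1817 for Cd8a, 1236 for Cd24a, 602 for Cadm1, 648 for Cd36, 1039 for Btla and 281 for Clec12a. Causes were not tested. Depth limits the precision of a receptor difference between both libraries of a sort, with a counting error of 1.796 to 5.18% of the mean.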
